A study of Mus musculus with 8 samples.

Results

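The genes examined are the 10 that encode the FOS, JUN and small MAF transcription factors, namely Fos, Fosb, Fosl1 and Fosl2, Jun, Junb and Jund, and Maff, Mafg and Mafk. They were chosen by symbol, and all 10 were found among the 17910 genes of a table of expected counts, that is, read numbers per gene estimated by splitting reads that match more than 1 gene. RNA was sequenced from wild-type mouse embryonic fibroblasts (MEFs), connective tissue cells bought from a culture collection and grown in DMEM with 10% fetal bovine serum. There were 4 groups of 2 libraries each: untreated or vehicle control (the labels do not say which), SRT1720 at 0.2 µM, RSL3 at 1 µM for 2 h, and SRT1720 at 0.2 µM given 30 min before RSL3 at 1 µM for 2 h. The labels give 2 h for all 4 groups, control and SRT1720 alone included. RSL3 blocks GPX4, a lipid peroxidase, and is used to bring on ferroptosis, and SRT1720 is a compound sold to activate SIRT1, a protein deacetylase. No group carries an altered gene, and the strain and passage of the cells are not given in the labels. The labels also do not say whether the 2 libraries of a group are separate cultures, and the p-values therefore cover the spread between library pairs that may differ for technical reasons only.

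FOS and JUN proteins are basic leucine zipper factors that pair to form AP-1, which binds DNA at TRE and CRE sites. FOS proteins need a partner to bind DNA, most often a JUN protein, whereas JUN proteins also pair with each other. Several of the genes are immediate early genes, which cells switch on within minutes of serum or stress without making new protein first. Small MAF proteins lack an activation domain: they repress as pairs of small MAF alone, and they activate with CNC factors such as NRF2 at antioxidant response elements. In fibroblasts AP-1 is known for driving matrix protease and growth genes after mitogens and stress.

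Libraries held 20579097 to 21287580 counts. Of the fibroblast markers, 9 of 10 were in the table (Lum was not analysed here) and summed to 6360 to 10300 CPM (counts relative to library size, after TMM scaling) in a library, mainly from Vim, Col1a1, Fn1 and Col1a2. Dcn, another standard fibroblast marker, was near absent, at 0.172 to 0.717 CPM in the 8 libraries. Markers of epithelium summed to 0.798 to 1.47 CPM, of muscle to 0.527 to 1.12 CPM with Myog at 0, of endothelium to 1.59 to 9.97 CPM, and of macrophages and leukocytes to 3.76 to 16.2 CPM. Endothelial markers summed to 1.59 to 2.23 CPM in control, 4.48 to 4.76 in SRT1720, 3.74 to 4.89 in RSL3 and 9.25 to 9.97 in SRT1720 plus RSL3 libraries, led by Cdh5, and macrophage markers to 3.76 to 5.19, 6.84 to 7.39, 12.0 to 16.2 and 11.7 to 13.2 CPM in the same order. Fibroblast markers summed to 7140 to 8620, 6360 to 6760, 8720 to 10300 and 7600 to 7620 CPM. The part of these shifts in the results below was not tested. A neural list summed to 219 to 277 CPM, led by Nes, an intermediate filament gene that cultured embryonic cells also make. In bulk RNA, fewer cells of a type and less RNA per cell cannot be told apart.

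Sequences just before the transcription start are shown for some members that hold a CRE core or a variant of it there. The core is the letters TGACG, which CREB, ATF and AP-1 dimers bind as part of a full CRE. Each run covers the 140 bases up to the start given by RefSeq (GRCm38.p6), in the direction of transcription. Capitals mark TGACG, the full TGACGTCA, the variant TGACATCA and, in Junb, TGTTTA, the reverse complement of TAAACA, a core that forkhead factors bind.
Fos, chr12:85473750-85473889, plus strand: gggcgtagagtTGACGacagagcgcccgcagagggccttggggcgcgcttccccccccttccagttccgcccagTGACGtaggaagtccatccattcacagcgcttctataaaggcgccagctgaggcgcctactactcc
Fosb, chr7:19310046-19310185, minus strand: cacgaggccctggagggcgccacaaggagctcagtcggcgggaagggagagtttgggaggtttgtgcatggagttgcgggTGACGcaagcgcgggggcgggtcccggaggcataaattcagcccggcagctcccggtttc
Jun, chr4:95052223-95052362, minus strand: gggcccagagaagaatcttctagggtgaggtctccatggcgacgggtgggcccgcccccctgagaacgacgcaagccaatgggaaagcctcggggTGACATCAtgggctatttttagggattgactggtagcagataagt
Junb, chr8:84978749-84978888, minus strand: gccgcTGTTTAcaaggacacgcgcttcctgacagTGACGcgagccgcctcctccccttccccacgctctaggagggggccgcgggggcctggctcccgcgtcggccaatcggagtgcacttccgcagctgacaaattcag
Maff, chr15:79347380-79347519, plus strand: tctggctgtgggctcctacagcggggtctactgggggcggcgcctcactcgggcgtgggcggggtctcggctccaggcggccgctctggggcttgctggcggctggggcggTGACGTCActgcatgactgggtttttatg
Mafg, chr11:120633548-120633687, minus strand: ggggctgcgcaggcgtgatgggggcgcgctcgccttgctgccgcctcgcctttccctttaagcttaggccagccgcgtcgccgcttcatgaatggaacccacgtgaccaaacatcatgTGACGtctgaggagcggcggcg

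Motifs were searched on both strands of longer windows, from 250 bases before to 50 bases after a start, and 9 members had 11 such windows (Fosl1 had no entry). TGACG was found in 7 of the 11 windows, from 6 of the 9 members (Fos, Fosb, Junb, Maff, Mafg and Mafk). Of the 32851 promoter windows of all genes 20.8% hold it. Members without it in their windows rose with RSL3 as well, Fosl2 3.72-fold, Jun 2.99-fold and Jund 4.12-fold. In Fos it begins 129 and 66 bases before the start, in Fosb 60, in Mafg 22 and in Junb 106. TGACGTCA, which contains TGACG, was found in 1 member, Maff, in the window printed above, and in 1.79% of all windows. TGACATCA was found 45 bases before the start in Jun and in another Maff window, and in 3.62% of all windows. The antioxidant response element core TGACNNNGC, where small MAF and CNC pairs bind, was found in 3 of the 11 windows, of Maff, Mafg and Mafk. It was found in 12.4% of all windows. The heat shock letters GAANNTTC were found in Fosl2 and Jun (7.86% of all windows), TAAACA in Junb (13.4%), and neither the TRE TGAGTCA (5.20%) nor the CArG box, the site of serum response factor (1.63%), in any of the 11 windows. These matches are descriptions of letters, not of binding. Sites farther than 250 bases before a start were not searched, so a motif missing here may lie outside the windows.

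RSL3 was compared with control to ask which of the genes respond to 2 h of RSL3, and all 10 rose. The rise was between 1.92-fold in Mafg and 9.36-fold in Fosb, with a median log2 fold change of 1.93 beside 0.01 over all 12618 genes tested. Of those genes 35.8% passed the test, 18.3% as higher and 17.5% as lower. The test was edgeR's quasi-likelihood test across all genes with Benjamini-Hochberg adjustment (threshold 0.05), on 8 libraries in 4 groups. All 10 passed as higher in each of the 17 alternatives run, including scaling by library size only, which moves the median of all genes by -0.28 on the log2 scale and turns 2308 higher and 2203 lower genes into 1220 and 4675. Directions are relative to TMM scaling.

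Among the FOS genes, Fos (NCBI Gene ID 14281), the founding immediate early gene, stood at 2.92 and 3.98 CPM in control libraries and at 21.8 and 29.4 CPM after RSL3. The control values rest on 68 and 90 reads. Its groups did not overlap, and the log2 fold change was 2.89 ± 0.21 (SE, adjusted p = 7.27e-06). Fosb (14282), a close relative of Fos that is also induced early, went from 3.86 and 6.24 CPM to 39.4 and 55.1 CPM. That was the largest of the 10 changes, 3.23 ± 0.23 (adjusted p = 6.64e-06), and in Fos and Fosb alike the second library was the higher in both groups.

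Fosl1 (14283), which encodes FRA1, a FOS protein without the long activation domain of FOS, had 447.7 and 412.4 CPM in control and 943.3 and 848.0 CPM with RSL3. Both treated libraries lay well above both controls, and the change was 1.06 ± 0.10 (adjusted p = 3.43e-05). Fosl2 (14284), encoding FRA2, went from 73.2 and 81.6 CPM to 270.9 and 304.6 CPM (1.89 ± 0.10, adjusted p = 1.26e-06). The 4 FOS genes thus spanned the widest range of changes, from Fosl1 at 2.08-fold to Fos at 7.41-fold and Fosb at 9.36-fold.

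All 3 JUN genes rose by a similar size. Jun (16476), whose protein is the main FOS partner and which AP-1 itself can switch on, read 264.1 and 325.5 CPM in control and 924.8 and 839.6 CPM with RSL3 (1.58 ± 0.12, adjusted p = 8.05e-06). Junb (16477), a weaker activator that can hold back growth, read 192.9 and 172.0 CPM in control and 729.1 and 700.9 CPM with RSL3, with no overlap between the groups (1.97 ± 0.10, adjusted p = 5.74e-07). Jund (16478), the JUN gene usually described as steadily expressed, read 196.0 and 162.2 CPM and then 763.9 and 710.6 CPM, again without overlap (2.04 ± 0.14, adjusted p = 5.37e-06).

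The small MAF genes differed in size of response. Maff (17133), the stress-inducible one, rose from 56.7 and 50.01 CPM to 252.5 and 228.1 CPM (2.17 ± 0.11, adjusted p = 7.5e-07). Mafk (17135) rose from 36.3 and 35.8 to 125.9 and 134.8 CPM (1.85 ± 0.10, adjusted p = 9.77e-07). Mafg (17134), a target of NRF2 in mouse cells, rose from 100.7 and 110.4 to 209.8 and 196.6 CPM, the smallest change of the 10 (0.94 ± 0.10, adjusted p = 6.71e-05). In none of these 3 did a treated library reach down to a control library.

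**Figure D1:**
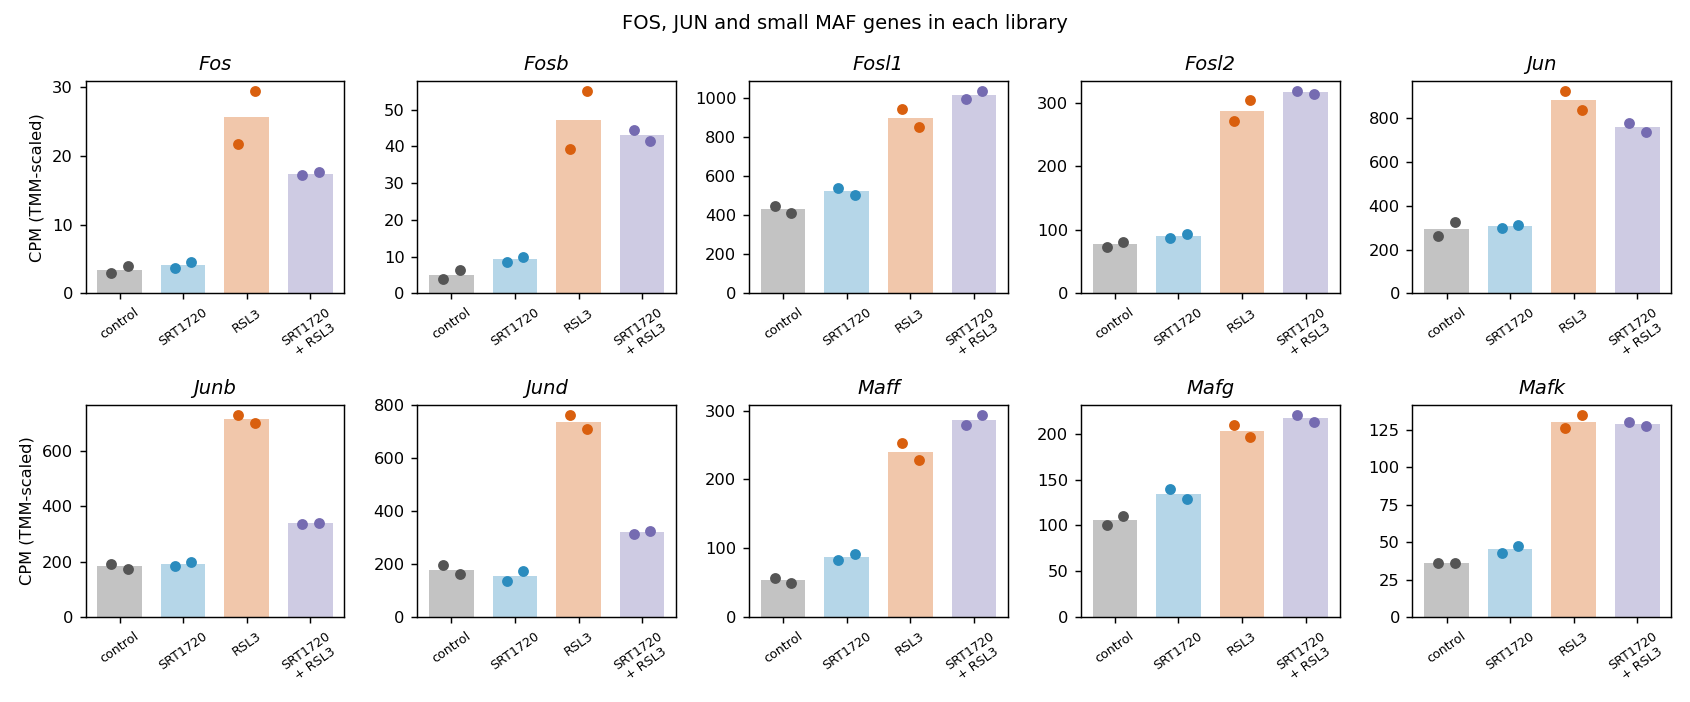
Level of each gene in the 4 groups, in TMM-scaled CPM (vertical axis from 0, its own range per gene), with bars for the mean of 2 libraries and points for the libraries. RSL3 libraries lie above control libraries in all 10 panels, and only Fos, Jun, Junb and Jund have both SRT1720 plus RSL3 libraries below both RSL3 libraries.

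Cells given SRT1720 and then RSL3 were compared with RSL3 alone to ask whether SRT1720 alters the response, and Junb and Jund fell while the other 8 did not pass the test. Junb read 729.1 and 700.9 CPM with RSL3 and 336.1 and 340.3 CPM with both compounds, and Jund 763.9 and 710.6 CPM and then 314.4 and 326.1 CPM. The libraries of each pair lay close together, and the groups were far apart. Junb was 2.11-fold lower, at -1.08 ± 0.09 on the log2 scale (95% interval -1.29 to -0.87, adjusted p = 0.000135). Jund was 2.30-fold lower, at -1.20 ± 0.14 (-1.51 to -0.90, adjusted p = 0.000462). Of all genes 20.2% passed this test, 11.4% as higher and 8.75% as lower. Both calls held in all 17 alternatives, 8 of which leave out 1 library. The levels remained above control: the log2 change of both compounds against control was 0.89 ± 0.09 for Junb (adjusted p = 0.000121) and 0.84 ± 0.14 for Jund (adjusted p = 0.00143).

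The third JUN gene did not move with them by this test. Jun read 924.8 and 839.6 CPM with RSL3 and 779.4 and 739.6 CPM with both compounds. The SRT1720 plus RSL3 libraries were the lower, without overlap, but the difference of -0.22 ± 0.11 did not pass (adjusted p = 0.205), and its 95% interval ran from -0.47 to 0.04. That interval does not meet those of Junb and Jund. It leaves room for a fall of Jun by up to 0.47.

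Fos read 21.8 and 29.4 CPM with RSL3 and 17.2 and 17.6 CPM with both compounds, a difference of -0.56 ± 0.18 that missed the threshold (adjusted p = 0.0564). It passed in 6 of 17 alternatives: with a replicate block (-0.54), with limma-voom (-0.54), without either control library (-0.56), without the first RSL3 library (-0.74) and with GC and length trends removed (-0.66). Fosb overlapped, at 39.4 and 55.1 against 44.5 and 41.5 CPM (-0.14 ± 0.19, adjusted p = 0.666). Without the second RSL3 library its difference was 0.13, so 1 library sets its sign.

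The remaining FOS and MAF genes did not pass, and 4 of the 5 had the higher mean with both compounds. Fosl1 read 992.6 and 1033 CPM with both compounds (0.18 ± 0.09, adjusted p = 0.218) and Fosl2 318.6 and 314.5 CPM (0.14 ± 0.10, adjusted p = 0.358). Maff read 279.0 and 294.0 CPM, above both RSL3 libraries, at 0.25 ± 0.10 (95% interval 0.02 to 0.49, adjusted p = 0.115). Mafg read 220.9 and 213.6 CPM (0.10 ± 0.09) and Mafk 129.8 and 127.1 CPM (-0.02 ± 0.09), the latter between the RSL3 libraries.

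Against SRT1720 alone, RSL3 raised all 10 genes again, where 21.3% of all genes passed, 12.3% as higher and 9.06% as lower. Changes ran from 0.69 ± 0.10 in Mafg to 2.22 ± 0.21 in Fosb, with a median of 1.41. Against control, cells given both compounds also had all 10 genes higher (31.5% of all genes passed, 17.4% as higher and 14.1% as lower), from Jund at 0.84 to Fosb at 3.09 ± 0.23. These comparisons share libraries with the previous ones, so they are not separate evidence. As a description, the mean rise over control with SRT1720 was 25.3% of the rise without it for Jund and 29.2% for Junb. It was 63.0% for Fos, 79.1% for Jun, 90.0% for Fosb and 98.0% for Mafk. It was 114% for Fosl2 and Mafg and 125% for Fosl1 and Maff.

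**Figure D2:**
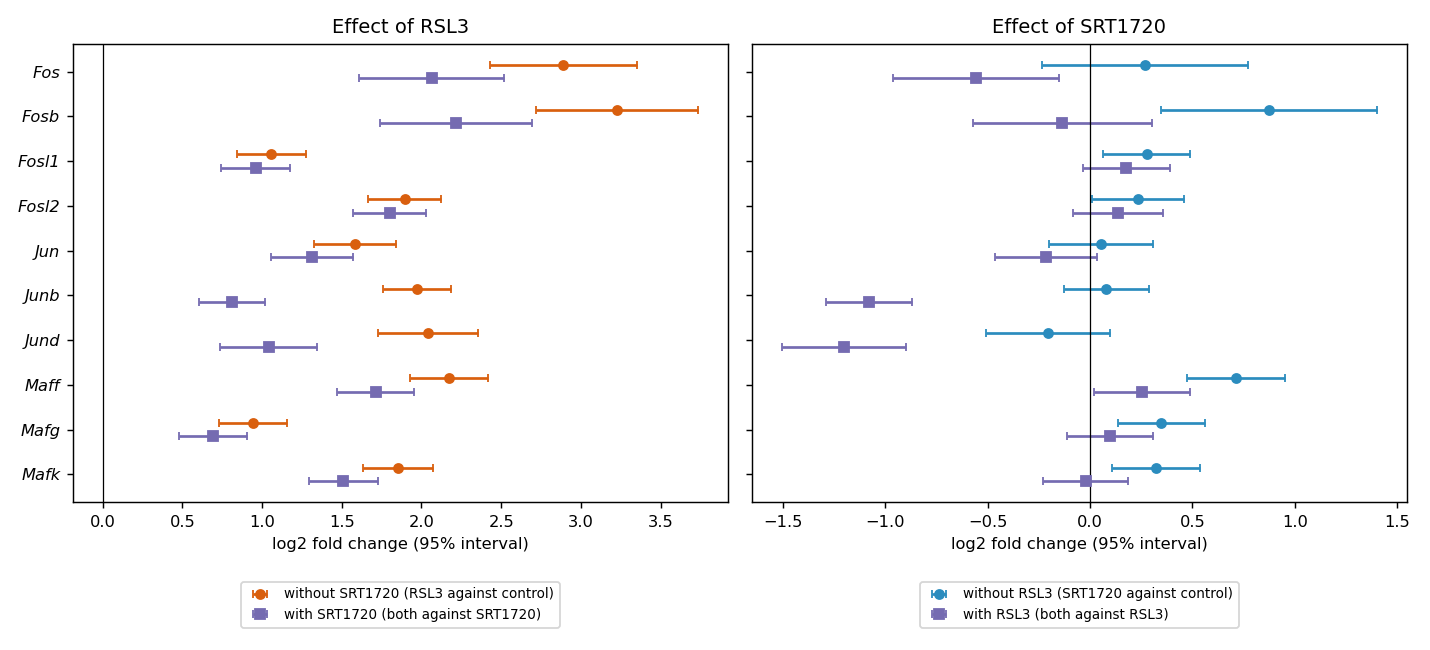
Log2 fold changes with 95% intervals (horizontal axes) for each gene, on the left for RSL3 without and with SRT1720, on the right for SRT1720 without and with RSL3. On the right the SRT1720 intervals in RSL3-treated cells lie wholly below -0.8 for Junb and Jund, and on the left all 20 intervals lie above 0.

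SRT1720 alone was compared with control to see what it does without RSL3. Maff rose, and it was the 1 member of 10 that passed, where 1.31% of all genes passed, 1.10% as higher and 0.206% as lower. Maff read 56.7 and 50.01 CPM in control and 82.6 and 92.2 CPM with SRT1720, with no overlap (0.71 ± 0.11, adjusted p = 0.0147). The call ended, with 0.63 to 0.79 on the log2 scale, when the second control library, either SRT1720 library or either SRT1720 plus RSL3 library was left out. The last 2 are not among the libraries compared and enter through the shared estimate of the spread.

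In 5 other members, Fosb, Fosl1, Fosl2, Mafg and Mafk, both SRT1720 libraries lay above both controls, but the test was not passed. Fosb read 3.86 and 6.24 CPM in control and 8.55 and 9.93 CPM with SRT1720 (0.87 ± 0.24, adjusted p = 0.125), and it passed with DESeq2 and when either RSL3 library was left out (0.57 to 1.26 over all alternatives). Mafg read 140.4 and 128.5 CPM with SRT1720 (0.35 ± 0.10, adjusted p = 0.13), Mafk 43.0 and 47.2 (0.32 ± 0.10), Fosl1 539.8 and 502.0 (0.28 ± 0.10) and Fosl2 87.8 and 94.0 CPM (0.23 ± 0.10). The JUN genes and Fos overlapped between the groups. Jun stood at 0.05 ± 0.11, Junb at 0.08 ± 0.09, Jund at -0.20 ± 0.14 and Fos at 0.27 ± 0.22.

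Whether SRT1720 acts differently with and without RSL3 was tested as the interaction, its log2 effect in RSL3-treated cells minus that in cells without RSL3. Junb and Jund passed, both in the lower direction, where 6.37% of all genes passed, 3.46% as higher and 2.92% as lower. The interaction was -1.16 ± 0.13 for Junb (adjusted p = 0.00133) and -0.999 ± 0.191 for Jund (adjusted p = 0.0156). The Jund call ended without the second SRT1720 library (-0.80) or without the first (-0.96) or second (-1.03) SRT1720 plus RSL3 library. Fosb (-1.01 ± 0.31, adjusted p = 0.0873), Fos (-0.83 ± 0.29, adjusted p = 0.13) and Maff (-0.46 ± 0.15, adjusted p = 0.107) did not pass. Of 16 alternatives, Fosb passed in 4, namely with DESeq2 (-1.01), without the second control library (-1.39), without the first RSL3 library (-1.21) and without the second libraries of control and RSL3 (-1.13). Fos passed without the first RSL3 library (-1.01), and Maff with GC and length trends removed (-0.54).

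The order of the groups followed 3 patterns. Fosl1, Fosl2, Maff and Mafg stood in the order control, SRT1720, RSL3, SRT1720 plus RSL3, with no overlap between the libraries of neighbouring groups. Fos, Jun, Junb and Jund were highest with RSL3, next with SRT1720 plus RSL3, and overlapped between control and SRT1720. Fosb and Mafk overlapped between RSL3 and SRT1720 plus RSL3, with SRT1720 above control. Of the neighbouring steps in these orders that do not involve RSL3 being added, only those of Junb, Jund and Maff named above passed the test.

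Summed over a family, the reads show what these orders add up to. JUN reads were 656.4 ± 4.80 CPM in control (SD, n = 2), 653.8 ± 50.9 with SRT1720, 2334 ± 118 with RSL3 and 1418 ± 16.9 with both. FOS reads were 515.9 ± 16.6, 625.2 ± 20.7, 1256 ± 27.1 and 1390 ± 23.7 CPM in the same order, and small MAF reads 195.0 ± 1.81, 266.9 ± 1.34, 573.9 ± 20.3 and 632.3 ± 3.57 CPM. So with SRT1720 added to RSL3 the JUN sum was lower while the FOS and small MAF sums were not. Fosl1 made up 71.3% of FOS reads with RSL3 and 72.9% with both, so the FOS sum says little about Fos and Fosb.

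The make-up of each family shifted as well, as shares of its reads, which also depend on transcript length. Jun made up 37.8% ± 0.672 of JUN reads with RSL3 and 53.6% ± 1.34 with both compounds (44.9% ± 6.29 in control). Jund made up 31.6% ± 0.02 with RSL3 and 22.6% ± 0.851 with both, and Junb 30.6% ± 0.693 and 23.9% ± 0.492. Among small MAF reads Mafg had 54.1% ± 3.01 in control and 35.4% ± 0.377 with RSL3, whereas Maff went from 27.4% ± 2.66 to 41.9% ± 1.53. Fosl1 had 83.3% ± 2.16 of FOS reads in control and 71.3% ± 3.83 with RSL3, where Fosl2 reached 22.9% ± 2.39.

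**Figure D3:**
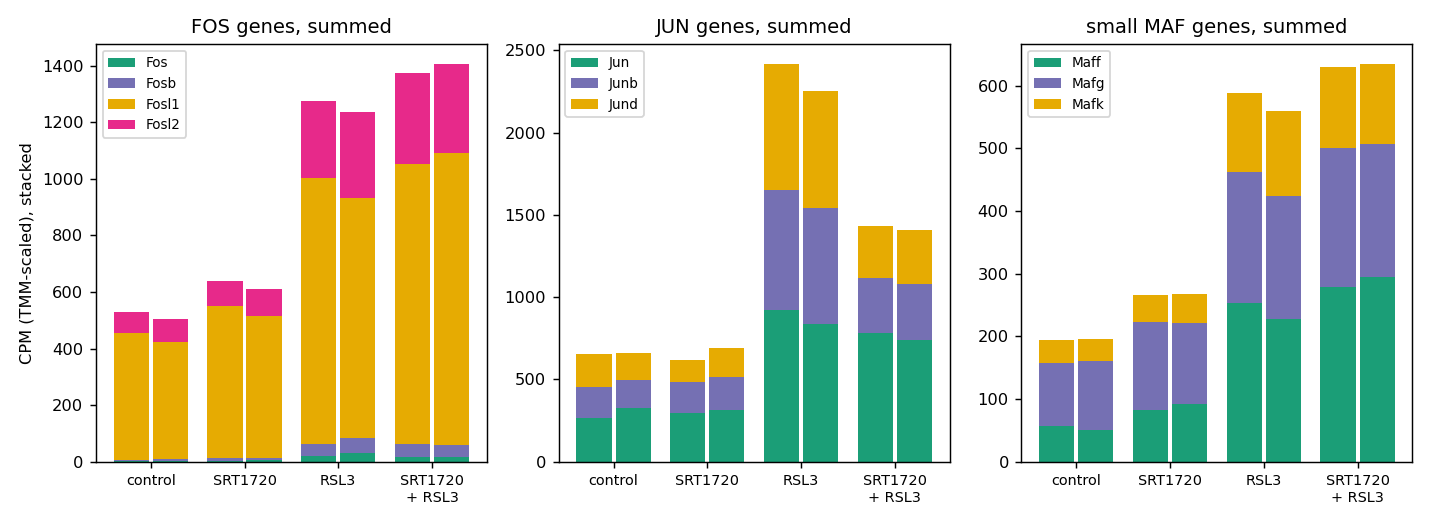
Reads of the FOS, JUN and small MAF genes in each of the 8 libraries, stacked by gene in TMM-scaled CPM (vertical axes from 0, 1 bar per library). The JUN stack is 2418 and 2251 CPM with RSL3 and 1430 and 1406 CPM with SRT1720 plus RSL3, while the other stacks are not lower with both compounds.

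Levels of different genes were compared per length, in CPM per kilobase of the longest coding transcript in GENCODE vM21. In control cells Fosl1 was the highest at 231, followed by Jund at 107, Junb at 101 and Jun at 92.4 CPM per kilobase. The small MAF genes and Fosl2 lay between, from Maff at 27.2 and Mafg at 21.4 to Fosl2 at 11.8 and Mafk at 11.6, and Fos at 1.64 and Fosb at 1.33 were the lowest. With RSL3 Fosl1 at 480 and Jund at 442 led, Junb and Jun stood at 395 and 277, and Fosb at 12.5 and Fos at 12.1 were still the lowest despite the largest fold changes. Jund, Junb and Jun overlapped in control libraries, as did Fosl2 with Mafk and Fos with Fosb. In RSL3 libraries Fosl1 overlapped Jund, Fosl2 at 44.0, Mafk at 42.1 and Mafg at 41.3 overlapped each other, and Maff stood apart at 123. The Jund position is uncertain, because the transcript used has 1668 bases and the RefSeq gene spans 2878.

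The members share a low number of exons. All 10 have at most 4 exons in that transcript, against 21.3% of the 12189 tested genes with a transcript and a median of 9 exons. The FOS genes have 4 exons, the small MAF genes 3, and Jun, Junb and Jund 1, as do 2.23% of genes. All 10 are richer in GC than the median gene (50.3%), with Jund at 67.1% and Junb at 62.6% the richest. Both of the genes that fell are thus single-exon and GC-rich, so the comparison of SRT1720 plus RSL3 with RSL3 was checked for such a trend. The 1219 genes with the highest GC content, at least 58.4%, had a median log2 change of 0.00 and the 272 single-exon genes one of 0.12. With trends over GC and length removed, Junb stood at -1.15 and Jund at -1.23, and both passed.

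AU-rich elements, which mark short-lived messages, were counted in the 3' untranslated regions. ATTTA occurred at least 3 times in 6 of 10 members (Fos, Fosl2, Jun, Maff, Mafg and Mafk) and in 38.5% of genes, with 8 copies in Fosl2 and 1 in Fosb, Fosl1 and Jund. The counts were not scaled by the length of the region, which is 4653 bases in Fosl2 and 533 in Jund. The longer TTATTTATT was found in Fos, Fosl2 and Maff, and in 8.43% of genes. It is shown in capitals with the bases around it, from GENCODE vM21 (GRCm38) transcripts, because it is the longer and rarer form. The base number given is that of the first capital letter, not of the first letter printed. Maff holds 2 copies, of which the first is shown.
Fos, chromosome 12, from base 655 of the region: tgttttcaatTTATTTATTaagatggattc
Fosl2, chromosome 5, from base 3692: atttattttaTTATTTATTttaaatgttta
Maff, chromosome 15, from base 933: ttccacactcTTATTTATTgcacgaatcta
All 10 members rose with RSL3, with or without it. For SRT1720 plus RSL3 against RSL3 only Junb and Jund passed, so most members without it did not pass either.

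Some members share exon bases with a neighbour, and whether the counting used strand is not given in the sources used here. Junb shares 173 bases with the opposite-strand gene Prdx2, a peroxidase gene, which had 5517 and 4890 counts with RSL3 and 4675 and 5070 with both compounds. The Prdx2 counts of those groups overlap, unlike those of Junb. Fosl1 shares 1163 bases with Ccdc85b on the opposite strand, which had 1005 and 779.8 counts in control and 397.8 and 313.2 with RSL3, opposite in direction to Fosl1. Mafg shares 124 bases with Sirt7 on the same strand, which had 639 and 524 counts in control and 298 and 228 with RSL3, opposite in direction to Mafg. The deposited Mafg value was not a whole number in any of the 8 libraries, so some of its reads had been divided. Sirt7 values were whole in all 8, and which gene shared the divided reads was not tested. Mafk shares 169 bases with Tmem184a, which had at most 9 counts in a library. Jun overlaps an antisense gene, Junos, by 232 bases and Jund one, Gm11175, by 877, which were not analysed here.

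Each member was also set beside the genes whose pattern was most like its own, measured as the root mean square difference over the 8 libraries of log2 levels after the control mean was subtracted. A pseudocount of 0.5 CPM was added before the logarithm, which shrinks the changes of genes near or below that level. Among the members themselves the closest pairs were Fosl2 and Mafk (0.13), Fosl1 and Mafg (0.14), and Junb and Jund (0.17). The gene nearest to both Junb (0.13) and Jund (0.16) was Rasd1, a small GTPase gene at low level, which had 2.34 ± 0.265 CPM with RSL3 and 0.778 ± 0.10 CPM with both compounds (0.195 ± 0.09 in control). Its control level was below the pseudocount, and in CPM it rose by a larger fold with RSL3 than Junb or Jund. Tob1, an antiproliferative gene, was the second nearest to Junb (0.16) and the third to Jund (0.22), at 30.4 ± 8.29 CPM in control, 118.7 ± 19.5 with RSL3 and 48.5 ± 2.91 with both. Hhipl2 was the third nearest to Junb (0.16), likewise at low level, with 0.457 ± 0.02 CPM in control and 3.32 ± 0.44 with RSL3, in CPM a larger fold than that of Junb.

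Jun was nearest to the chaperone genes Hsp90aa1 (0.08) and Hspa8 (0.09) and to Atf4 (0.14), the transcription factor gene of the integrated stress response. Hsp90aa1 read 1551 ± 57.1 CPM in control, 4688 ± 126 with RSL3 and 3795 ± 172 with both. Fos was nearest to Chka (0.18), a choline kinase gene, Srxn1 (0.19) and Rcan1 (0.23), and Fosb to Ptgs2 (0.20), the inducible cyclooxygenase gene, Zfand2a (0.26) and Herpud1 (0.29). Fosl2 was nearest to Hbegf (0.11), a growth factor gene, then Mafk and Ier5 (0.16). Fosl1 was nearest to Ubap1 (0.06), Stk40 (0.09) and Mdm2 (0.09), Maff to Vps37b (0.11), Plcxd2 (0.18) and Btg1 (0.18), Mafg to C9orf72 (0.06), Cyth2 (0.08) and Mdm2 (0.09), and Mafk to Fosl2, Hbegf (0.14) and Glul (0.16). All have been picked as the nearest of many genes, so the likeness itself carries no test.

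Other genes of the pathway were taken from 7 lists by role, given by count and median beside that of all genes (0.01 for RSL3 against control), except the large MAF list, of which 1 gene is described. Of all genes tested, 18.3% were higher and 17.5% lower with RSL3. Scaled by library size only, 1220 of the 12618 were higher and 4675 lower. With SRT1720 added to RSL3, 11.4% were higher and 8.75% lower. Of 6 ATF and BATF genes tested, whose proteins pair with FOS or JUN, 5 rose with RSL3 (median 0.97). The count was 4 higher with RLE size factors, and 4 higher and 1 lower when scaled by library size only. The gene that lost its call with RLE was Jdp2 (0.64 ± 0.22, adjusted p = 0.0491), named after its value was seen, which passed in 7 of 17 alternatives. Atf3, a stress-induced JUN partner, went from 9.67 ± 0.328 to 714.0 ± 69.8 CPM (6.21 ± 0.12, adjusted p = 5.79e-09), and Batf3 (1.22 ± 0.26), Creb5 (1.08 ± 0.13) and Atf2 (0.87 ± 0.17) rose by less. With SRT1720 added to RSL3, Atf3 was the 1 gene of this list that passed, at 365.7 ± 9.56 CPM and -0.97 ± 0.10 (adjusted p = 0.000258). Its interaction was -1.28 ± 0.15 (adjusted p = 0.00166) and held in all 16 alternatives, so it passed in the same direction as Junb and Jund.

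Of 5 CNC and BACH genes tested, the partners of small MAF, 4 rose with RSL3 (median 0.96), beside 18.3% of all genes. With library size only 2 did so, beside 1220 of all 12618 genes. Nfe2l2, which encodes NRF2, went from 91.8 ± 5.70 to 178.9 ± 12.9 CPM (0.96 ± 0.10, adjusted p = 5.9e-05), and Bach1, a repressor of NRF2 targets, from 17.7 ± 2.68 to 45.7 ± 6.79 CPM (1.37 ± 0.16, adjusted p = 0.000137). Nfe2l1 rose by 0.46 ± 0.08 and Bach2 by 0.96 ± 0.28, and the Bach2 call ended without the first control or the second RSL3 library (0.61 to 1.43 over all alternatives). With SRT1720 added, Nfe2l2 (-0.46 ± 0.09) and Bach2 (-1.09 ± 0.28) fell, and Bach1 at -0.47 ± 0.15 did not pass (adjusted p = 0.0553). Both calls ended without either SRT1720 plus RSL3 library and that of Bach2 also without the second RSL3 library (-0.52 to -0.39 for Nfe2l2 and -1.31 to -0.81 for Bach2 over all alternatives). Among the large MAF genes, Mafa rose with RSL3 from under 1 CPM (1.74 ± 0.32) and fell with SRT1720 added (-1.14 ± 0.31), a call that ended in 7 alternatives, among them without the first RSL3 library or any of the SRT1720 and SRT1720 plus RSL3 libraries (-1.40 to -0.81).

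Of 10 genes for factors that act on FOS and JUN promoters, 5 rose and 2 fell with RSL3 (median 0.38), beside 18.3% and 17.5% of all genes. With library size only these counts became 2 and 3, beside 1220 higher and 4675 lower of all 12618 genes. Srf, which encodes serum response factor, fell by 0.89 ± 0.10, from 236.1 ± 18.1 to 127.5 ± 0.842 CPM (adjusted p = 9.55e-05), while Mef2a (1.04 ± 0.13), Mef2d (0.84 ± 0.10) and Creb1 (0.43 ± 0.12) rose. The Creb1 call ended without either control library or the first RSL3 library (0.15 to 0.54 over all alternatives). With SRT1720 added Srf rose by 0.59 ± 0.10 to 191.6 ± 9.09 CPM, and so did Elk1 (0.42 ± 0.10), a ternary complex factor gene named here after its value was seen, whose call ended without the second RSL3 or either SRT1720 plus RSL3 library (0.34 to 0.49). The interaction was passed by Srf (0.96 ± 0.13, adjusted p = 0.00396) and, in the lower direction, by Mef2d (-0.58 ± 0.14, adjusted p = 0.0394). The Srf call held in all 16 alternatives, and the Mef2d call ended in 8, which include leaving out any 1 library other than the first RSL3 library (-0.66 to -0.48).

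Few kinase and turnover genes passed with RSL3. Of 12 genes for kinases of FOS and JUN proteins 2 rose and 1 fell with RSL3 (median -0.07, beside 35.8% of all genes called). These were Gsk3b (0.69 ± 0.14), Mapk8, which encodes the JUN kinase JNK1 (0.50 ± 0.14), and Mapk14, a p38 gene (-0.68 ± 0.11). With library size only 1 rose and 7 fell, beside 1220 higher and 4675 lower of all 12618 genes. With SRT1720 added 3 of the 12 fell, beside 8.75% of all genes: Gsk3b (-0.49 ± 0.14), Mapk8 (-0.45 ± 0.14) and Rps6ka1 (-0.34 ± 0.10), the last named after its value was seen. These 3 calls ended in 6, 10 and 14 of 17 alternatives, in each case among others without any 1 of the SRT1720 or SRT1720 plus RSL3 libraries (-0.58 to -0.29, -0.56 to -0.32 and -0.44 to -0.28). The Mapk8 call with RSL3 ended without the first control or the second RSL3 library (0.22 to 0.69). Of 7 turnover genes, only Usp28, a deubiquitinase gene, passed with RSL3 and rose (0.69 ± 0.11, list median -0.01), beside 35.8% of all genes called. With SRT1720 added it fell (-0.46 ± 0.11) while Det1 rose (0.73 ± 0.18, named after its value was seen), where 20.2% of all genes passed. Both calls ended without either SRT1720 plus RSL3 library (-0.50 to -0.40 and 0.54 to 0.97).

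**Figure D4:**
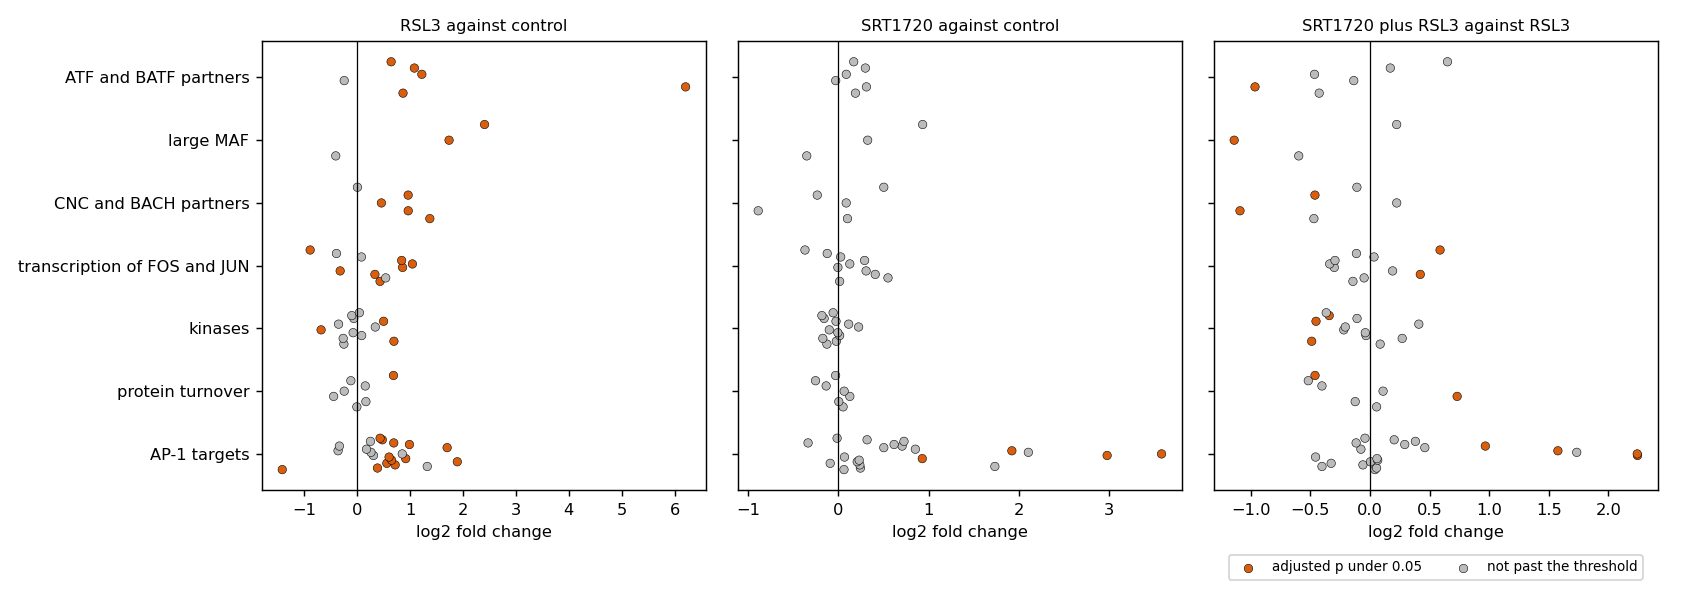
Log2 fold changes (horizontal axes) of every tested gene of the 7 lists, in 3 comparisons, with orange points past an adjusted p of 0.05 and grey points not. The point farthest to the right for RSL3 is Atf3 at 6.21, and the orange points for SRT1720 alone are all in the row of AP-1 targets, where Mmp13 is the highest at 3.59.

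Of 21 genes described as AP-1 targets in fibroblasts, 12 rose and 1 fell with RSL3 (median 0.56), beside 18.3% and 17.5% of all genes. With library size only these counts became 7 and 2, beside 1220 higher and 4675 lower of all 12618 genes. Hbegf, an EGF-family growth factor gene, went from 82.4 ± 13.5 to 305.6 ± 22.3 CPM (1.89 ± 0.13, adjusted p = 5.42e-06). Ccnd1, the cyclin D1 gene, fell by 1.42 ± 0.11, from 225.4 ± 28.3 to 84.5 ± 4.67 CPM (adjusted p = 1.11e-05). None of the matrix protease genes tested, Mmp1b, Mmp3, Mmp9, Mmp10 and Mmp13, passed with RSL3. Mmp1b stood at 0.26 and Mmp9 at 0.18. Mmp3 stood at -0.36 (95% interval -1.28 to 0.56), Mmp10 at 0.31 (-0.85 to 1.47) and Mmp13 at 0.85 (-0.29 to 1.99), and the intervals of Mmp10 and Mmp13 include changes as large as those of several of the 10 factors.

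Mmp3, Mmp10 and Mmp13 were higher with SRT1720, where 4 of the 21 targets rose (median 0.50 beside 0.00 for all genes), beside 1.10% of all genes. Mmp13, the collagenase gene, read 2.10 and 0.531 CPM in control and 16.6 and 15.4 CPM with SRT1720, far apart (3.59 ± 0.44, adjusted p = 0.00706). Mmp10 (2.98 ± 0.48), Mmp3 (1.92 ± 0.35) and Lif (0.93 ± 0.13) were the other 3, named after their values were seen. The proteases Mmp9 (0.85 ± 0.19, adjusted p = 0.0688) and Mmp1b (2.11 ± 0.62, adjusted p = 0.156) did not pass. The calls of the 4 that passed ended without either SRT1720 library, and those of Mmp10, Mmp3 and Lif also without the second control library. Those of Mmp10 and Mmp3 ended without either SRT1720 plus RSL3 library as well. Over all alternatives the values were 2.92 to 4.90 for Mmp13, 2.38 to 4.04 for Mmp10, 1.49 to 2.56 for Mmp3 and 0.79 to 1.09 for Lif. With RSL3 present SRT1720 again raised Mmp13, from 3.31 and 1.48 to 10.9 and 11.8 CPM (2.24 ± 0.42, adjusted p = 0.00573), as well as Mmp10 (2.24 ± 0.47), Mmp3 (1.58 ± 0.39) and Plau (0.97 ± 0.22), the urokinase gene. Of these, Mmp10 and Mmp13 lost the call without the second SRT1720 plus RSL3 library, and Mmp3 and Plau without either (1.78 to 2.96 for Mmp13, 1.67 to 3.24 for Mmp10, 1.15 to 2.20 for Mmp3 and 0.78 to 1.20 for Plau). Mmp3 lost it also without the second RSL3 library. In control and in RSL3 cells the first library was the higher in all 4 of these genes. Mmp9 and Mmp1b did not pass with SRT1720 added to RSL3, and Mmp9 stood at 4.50 ± 0.624 CPM with RSL3 and 4.27 ± 0.102 CPM with both. Of the targets only Lif passed the interaction (-0.87 ± 0.18, adjusted p = 0.0229), a call that ended without the second control library or any of the SRT1720 and SRT1720 plus RSL3 libraries (-1.03 to -0.69).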

How the data were processed

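The authors deposited expected counts per gene; 76.6% to 77.7% of a library's values were whole numbers. Libraries were made with the TruSeq Stranded mRNA LT kit and sequenced on an Illumina instrument, per the labels' protocols. For aligner, counter, build and strand setting, nothing is given in the sources used here. The labels' extraction text names cells and tissue that are not among these samples. Columns were matched by library name: a bare name was taken as replicate 1, a suffixed name as replicate 2.

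Counts were rounded to whole numbers. filterByExpr kept 12618 genes and 705 were 0 in all libraries. Levels are TMM-scaled CPM. A quasi-likelihood model with 4 group means was fitted in edgeR 4.0.16 (R 4.3.3), with 4 residual and 5.73 prior degrees of freedom, a common dispersion of 0.0112 (coefficient of variation 10.6%) and two-sided Benjamini-Hochberg adjusted p-values. SE is the log2 change over the square root of F. Library pairs differed beyond counting error (chi-square per degree of freedom 10.1 to 41.0). Alternatives were other scalings, no filter, a replicate block, limma-voom (limma 3.58.1), DESeq2 1.42.0, only the libraries compared, and each library left out.

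The members and lists were chosen with earlier results of these data known. Named from lists were at most 4 genes by smallest p that passed with RSL3 or SRT1720, plus Nfe2l2 and Bach1. Some genes that this rule names are not reported here. Named neighbours were the 3 nearest genes, with a pseudocount of 0.5 and predicted loci skipped. The model was tested on simulated data.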

Additional observations from a re-analysis of the deposited data

Results flagged for a closer look

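The JUN genes Junb and Jund stood out because the effect of SRT1720 differed with and without RSL3 by the interaction test (edgeR's quasi-likelihood test, Benjamini-Hochberg over 12618 genes). For Junb the log2 effect of SRT1720 was -1.08 with RSL3 and 0.08 without it, a difference of -1.16 (adjusted p = 0.00133). For Jund it was -1.20 with RSL3 and -0.20 without it, a difference of -0.999 (adjusted p = 0.0156). The Jund call ended in 3 of 16 alternatives (-1.17 to -0.80 over all), while the Junb call held in all 16 (-1.24 to -1.08). In both genes the 2 RSL3 libraries lay above the 2 SRT1720 plus RSL3 libraries, while control and SRT1720 libraries overlapped.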

How the results depend on the processing

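With 2 libraries a group, the count of all genes that pass depends strongly on which library is left out, and the causes were not tested. Over 60 results for single members, 1010 values under alternatives kept their direction and side of the threshold in 975 cases, passed newly in 19, no longer passed in 8 and changed sign in 8. Leaving out 1 library, the members that passed ran from 0 to 2 for SRT1720 against control and from 1 to 4 for the interaction. The count of all genes that passed ran from 9 to 511 for SRT1720 against control (165 with all libraries), from 849 to 3517 for SRT1720 plus RSL3 against RSL3 (2546), from 1061 to 3570 against SRT1720 (2692), from 2064 to 4950 against control (3971) and from 175 to 1275 for the interaction (804). The lowest counts came without an SRT1720 or an SRT1720 plus RSL3 library. Log2 values that changed sign when 1 library was left out ran from -0.091 to 0.21 (Jun) and from -0.0015 to 0.16 (Junb) for SRT1720 against control, and from -0.34 to 0.13 (Fosb) and from -0.052 to 0.030 (Mafk) for SRT1720 plus RSL3 against RSL3. With only the libraries compared, the counts of all genes were 2905 (RSL3 against control, beside 4511), 265 (SRT1720 against control), 1574 (SRT1720 plus RSL3 against RSL3) and 4635 (against SRT1720). With DESeq2, 403 genes and 2 members (Maff and Fosb) passed for SRT1720 against control. With library size only, Mafk stood at 0.036 for SRT1720 plus RSL3 against RSL3, and the split of higher and lower genes was 1735 and 885 (1442 and 1104 with TMM), against SRT1720 894 and 3066 (1549 and 1143), against control 1290 and 4017 (2191 and 1780), and for the interaction 600 and 284 (436 and 368). A further pair of alternatives was chosen after seeing the data. Without the second libraries of control and RSL3, 411 genes and 3 members passed for SRT1720 against control (Junb at -0.0015), 4625 genes for SRT1720 plus RSL3 against SRT1720, and 1270 genes and 4 members for the interaction, while Fosb stood at 0.13 and Mafk at 0.030 for SRT1720 plus RSL3 against RSL3. With GC and length trends removed, 333 genes passed for SRT1720 against control.

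Replicate numbers did not pair the samples across all 4 groups. The deviations of same-numbered libraries correlated by 0.70 between control and RSL3, across 8637 genes, which are not independent. The correlation was -0.40 between RSL3 and SRT1720 plus RSL3, -0.29 between control and SRT1720 plus RSL3, and about 0 with SRT1720 alone. Control and RSL3 libraries of the same number thus deviated alike, which the main test, without a replicate block, does not model. With a replicate block, Fos at -0.54 also passed for SRT1720 plus RSL3 against RSL3, so that 3 members did. For that comparison 1471 genes were then higher and 1106 lower. Depth limits Fos and Fosb most, at 68 to 141 reads a library in control.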
